A study of Mus musculus with 6 samples.

Results

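Surface ectoderm is the sheet of embryonic cells that becomes epidermis, and the 8 genes described here encode transcription factors that act in it. They are the AP-2 factors Tfap2a, Tfap2b and Tfap2c, the grainyhead-like factors Grhl1, Grhl2 and Grhl3, the p53 relative Trp63 and the GATA factor Gata3. They were chosen by symbol out of the 31053 genes of the deposited tables, with earlier results of these data known, and all 8 were found. Their UMIs (unique molecular identifiers, each counting 1 captured transcript end) were read at 3 stages in mouse embryonic stem cells (ESC) and their progeny, each stage in 2 genotypes, with 1 library for each of the 6 groups. The series asks how Oct1 acts together with Smad factors when mesoderm is specified. The groups were Oct1_cKO and parental ESC, Oct1_cKO and parental cells at day 3, and Oct1_cKO and parental cells at day 6 of a differentiation directed to mesoderm. Oct1_cKO is written cKO here, and Oct1 is the POU-domain factor encoded by Pou2f1. The differentiation began on 0.1% gelatin with 2 days of the growth factor Bmp4 in N2B27 medium, followed by 4 days of Rspo3, an enhancer of Wnt signals, and the BMP receptor inhibitor LDN-193189 in a medium based on DMEM. The labels do not say how or when Oct1 was deleted, from which line the cells came, or whether the libraries of a genotype share a clone.

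In the embryo, BMP signals turn ectoderm away from the neural fate, and AP-2 and GATA factors are among the first transcription factors of the non-neural ectoderm that results. Grainyhead-like factors then keep the sheet epithelial by activating genes of cell junctions and membrane proteases, and p63, the product of Trp63, is needed for a stratified epidermis. The same factors have other sites. AP-2 factors act in neural crest and in some neurons, Tfap2c and Gata3 act in the trophoblast, the outer lineage of the placenta, and Tfap2c is also used by primordial germ cells.

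Of 11046 barcodes, 7096 were kept as cells, which needed 1000 or more detected genes and no more than 10% of their UMIs from mitochondrial genes. There were 530 cKO and 1396 parental cells in ESC, 1026 cKO and 948 parental cells at day 3, and 1650 cKO and 1546 parental cells at day 6. The kept cells of a library held 38935937 to 84128627 UMIs, and the median cell held 30925 to 82544 UMIs. The most barcodes shared by a pair of libraries was 2. The share of UMIs from chromosomes 1, 6 and 8, set against that from chromosome 11, stood apart in many parental cells from that of the median cKO cell of their stage. Within 0.25 log2 units of it, and called cells without a chromosome shift below, were 495 cKO and 407 parental cells in ESC, 966 and 128 at day 3, and 1445 and 272 at day 6. That name means only that a cell's UMI shares were near those of the median cKO cell. Whether chromosome number or the kind of cell moved the shares was not tested. Pou2f1 measured 21.5 CPM in cKO and 30.1 CPM in parental ESC, 12.6 and 28.3 CPM at day 3, and 16.0 and 30.9 CPM at day 6, in that genotype order. CPM are UMIs per 1000000 UMIs of the library. A tag from the 5′ end does not show whether an internal part of Pou2f1 was deleted, so these values do not check the deletion. With 1 library in each group there is no replicate and no test between groups, and every interval below covers counting error only. The titles of the ESC libraries also carry another prefix than those of days 3 and 6, so that prefix and the step from ESC to day 3 cannot be told apart. The labelled cell types were partly borne out by their markers. In ESC, all 9 markers of naive pluripotency were detected, but a fibroblast-like cluster held 124 of the parental cells and 3 of the cKO cells. At day 6, the somite markers outside the epithelial cells summed to 331 CPM in cKO and 215 CPM in parental cells, and epithelial and neural-like cells were present beside them.

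The members of a family are similar enough that reads could in principle be shared between them, so their coding sequences were compared. Over whole coding sequences, identity was 69.4% between Tfap2a and Tfap2b, 66.8% between Tfap2a and Tfap2c, and 65.4% between Tfap2b and Tfap2c. It was 68.1% between Grhl1 and Grhl2, 64.9% between Grhl1 and Grhl3, and 62.9% between Grhl2 and Grhl3. No stretch of 31 bases was common to any of these pairs. The most alike stretch of 60 coding bases in each family is shown to let this be seen (GENCODE transcripts on mm10, 5′ to 3′, with capitals at bases that differ among the 3 genes). In the AP-2 family 17 of the 60 bases differed, over coding bases 808 to 867 of Tfap2a, 778 to 837 of Tfap2b and 949 to 1008 of Tfap2c.
Tfap2a: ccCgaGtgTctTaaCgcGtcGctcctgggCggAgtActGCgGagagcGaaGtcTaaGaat
Tfap2b: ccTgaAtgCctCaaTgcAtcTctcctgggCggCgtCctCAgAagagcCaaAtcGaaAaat
Tfap2c: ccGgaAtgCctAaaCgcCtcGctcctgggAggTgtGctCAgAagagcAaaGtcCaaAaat
In the grainyhead-like family 14 of the 60 bases differed, over coding bases 109 to 168 of Grhl1, 118 to 177 of Grhl2 and 106 to 165 of Grhl3.
Grhl1: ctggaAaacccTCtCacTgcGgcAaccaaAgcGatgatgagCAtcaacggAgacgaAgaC
Grhl2: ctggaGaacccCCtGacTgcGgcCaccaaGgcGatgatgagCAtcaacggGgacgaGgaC
Grhl3: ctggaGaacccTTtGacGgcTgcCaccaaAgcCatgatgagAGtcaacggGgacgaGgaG

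A gene is counted below as higher or lower when 2 libraries differed by at least 2-fold and the higher one held at least 2 CPM. Because the members were chosen with earlier results of these data known, their counts beside the shares of all genes are description only. At day 6, 4 of the 8 members were higher in cKO (Tfap2a, Grhl2, Grhl3 and Gata3) and 1 was lower (Tfap2b), where 6.22% of 11744 genes were higher and 8.57% were lower. In ESC, 1 member was higher (Tfap2a) and 1 lower (Grhl2), against 1.81% higher and 4.21% lower of 11168 genes. At day 3 none of the 8 passed in either direction, against 0.427% higher and 1.03% lower of 10779 genes, and only 2 members reached 2 CPM in a library. Among the members that reached 2 CPM, 5 in ESC, 2 at day 3 and 6 at day 6, the median log2 ratio of cKO over parental was 0.63 in ESC, 0.58 at day 3 and 1.55 at day 6. The same median over all genes was −0.02, −0.07 and −0.06 at these stages.

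**Figure D1:**
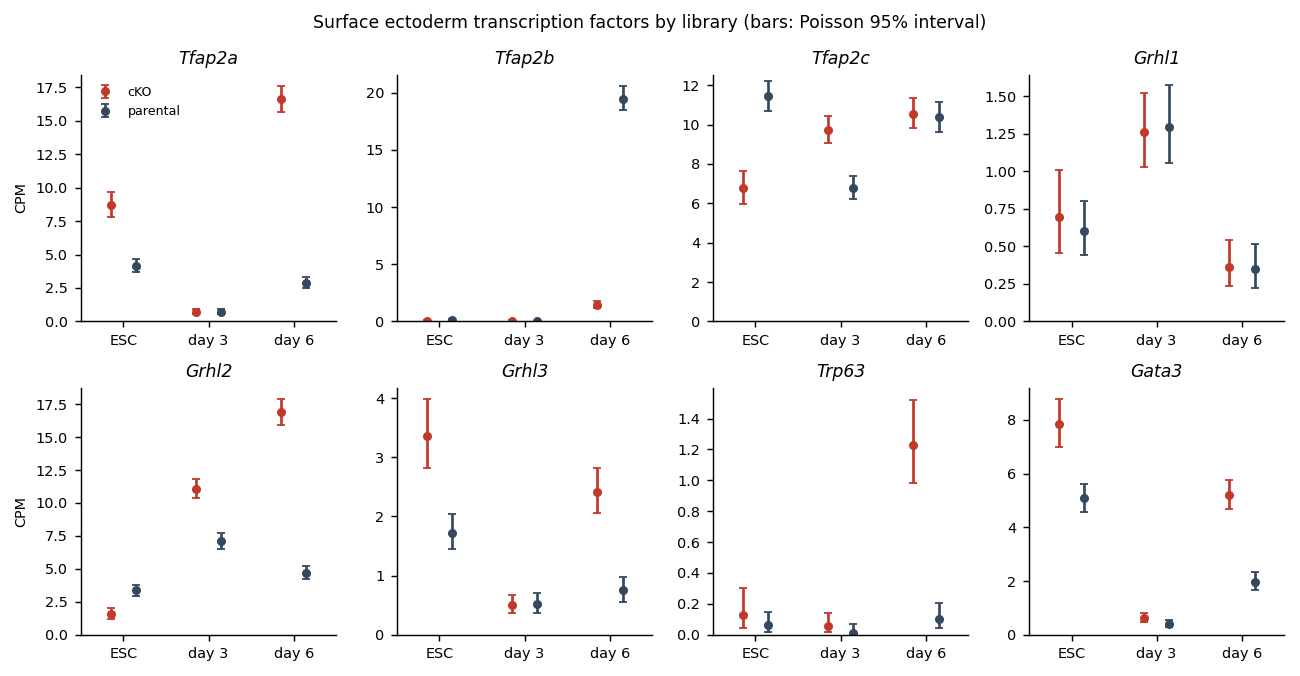
CPM of the 8 members in each library, with cKO left of parental at each stage and exact Poisson 95% intervals as bars; each panel has its own vertical axis from 0. At day 6 Tfap2a stands at 16.6 CPM in cKO and 2.90 CPM in parental cells, and Tfap2b at 1.44 CPM in cKO and 19.5 CPM in parental cells.

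Tfap2a (ENSMUSG00000021359, mm10 chromosome 13, 40715302 to 40738376, minus strand), a factor of surface ectoderm and neural crest, was high at both ends of the time course and low between them. In cKO it measured 8.68 CPM (95% interval 7.78 to 9.66) in ESC, 0.725 CPM (0.555 to 0.931) at day 3 and 16.6 CPM (15.6 to 17.6) at day 6. In parental libraries it measured 4.16 CPM (3.72 to 4.64), 0.694 CPM (0.522 to 0.906) and 2.90 CPM (2.51 to 3.33) at these stages. From low to high, the order of the levels was both day 3 libraries, whose intervals overlap, then parental day 6, parental ESC, cKO ESC and cKO day 6, with no overlap between these 4. The log2 ratio of cKO over parental was 2.52 (2.30 to 2.74) at day 6, or 1.16 when each cell had equal weight, and 1.06 (0.84 to 1.29) in ESC.

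At day 6 the Tfap2a transcripts of the genotypes lay in different kinds of cell. Cells of both genotypes were clustered together without the 8 members, so the members did not shape the clusters. Clusters were named, with the ending -like, from lists of marker genes. The clusters day6-0 (led by Cited1, Acta1, Krt8, Krt18 and Wfdc2) and day6-1 (led by Spink1, Cd9, Slc39a8, Sox17 and Fabp3) were epithelium-like. In cKO they held 1046 of the 1133 Tfap2a UMIs, at 24.1 CPM (22.2 to 26.2) in day6-0 and 21.0 CPM (19.1 to 22.9) in day6-1. Parental cells of the same clusters held 41 of the 201 Tfap2a UMIs, at 1.92 CPM (1.17 to 2.97) and 5.39 CPM (3.33 to 8.23). In parental cells, 63.2% of the Tfap2a UMIs came from the neural-like cluster day6-3, led by Tubb3, Nhlh2, Ina, Onecut2 and Igfbpl1, where 139 cells measured 22.1 CPM (18.4 to 26.3). That cluster held only 7 cKO cells, too few for a level. In the parental library, the 29 cells with a Tfap2a UMI at 10000 UMIs per cell summed to 7097 CPM over the 10 neural markers, against 1698 CPM in the 1146 other cells. In the cKO library, the 125 such cells summed to 70.4 CPM over the same markers, against 88.9 CPM in the 967 other cells, and to 9391 against 5890 CPM over the epithelial markers. The cells that held most Tfap2a were thus epithelium-like in the cKO library and neural-like in the parental library. Whether the epithelium-like cells were surface ectoderm or another epithelium was not tested.

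**Figure D2:**
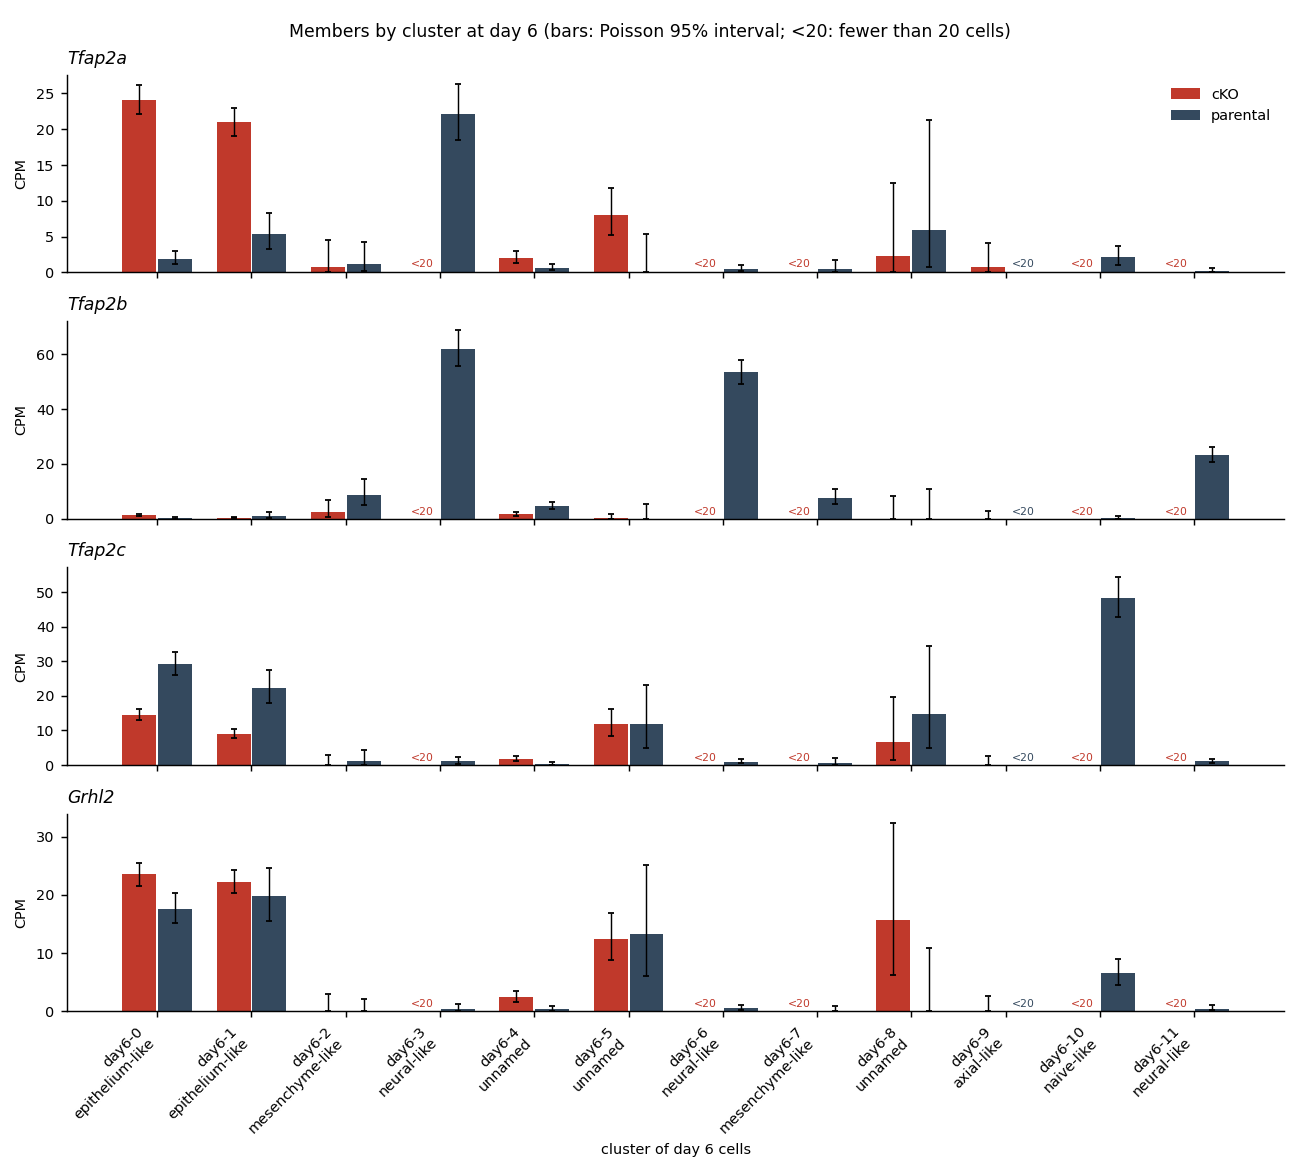
CPM of Tfap2a, Tfap2b, Tfap2c and Grhl2 in each day 6 cluster with at least 20 cells of a genotype, cKO left of parental, with exact Poisson 95% intervals; "<20" marks a genotype with fewer cells there. Tfap2a is high in cKO cells of day6-0 and day6-1 and in parental cells of day6-3, and Tfap2b is high in parental cells of day6-3, day6-6 and day6-11.

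Both epithelium-like clusters together held 686 of 1650 cKO cells (41.6%; exact binomial 95% interval 39.2 to 44.0) and 204 of 1546 parental cells (13.2%; 11.5 to 14.98). These cells gave 67.8% of the cKO UMIs and 20.7% of the parental UMIs, so a level over a whole library mixes the share of such cells with the level within them. Within them, day6-1 held 382 of the cKO cells and 73 of the parental cells, and day6-0 held 304 and 131. Counted over these cells alone, 1 member was higher in cKO (Tfap2a) and 1 was lower (Tfap2c), against 2.05% higher and 3.16% lower of 11290 genes. The median log2 ratio of all genes there was below 0.01 in size. The summed markers of epithelium were close, at 9851 CPM in cKO and 9918 CPM in parental cells, with none of the 11 at 0. These 11 markers also gave the clusters their name, so their closeness is partly set by that choice and is no separate check. The neural markers summed to 37.1 CPM in cKO and 60.9 CPM in parental cells of these clusters, against 205 and 1699 CPM in all other cells. Markers of trophoblast summed to 13.7 CPM in cKO and 21.7 CPM in parental cells, with 1 of the 8 at 0 in each. Markers of axial cells and endoderm, Sox17 among them, summed to 22.9 CPM in cKO and 55.7 CPM in parental cells of day6-1. In day6-0 they summed to 6.17 CPM in cKO and 4.42 CPM in parental cells.

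Within the epithelium-like clusters Tfap2a measured 22.6 CPM (21.2 to 24.0) in cKO and 2.87 CPM (2.06 to 3.89) in parental cells, a log2 ratio of 2.98 (2.53 to 3.47). With each cell thinned to 10000 UMIs, 17.1% of 666 cKO cells (14.3 to 20.2) and 2.5% of 200 parental cells (0.817 to 5.74) held a Tfap2a UMI. The share in all other cells at the same depth, which include the neural-like day6-3, was 2.58% in cKO and 2.46% in parental cells. Without thinning, a UMI was seen in 40.5% of cKO and 10.8% of parental cells of the clusters, whose median cells held 58161 and 59566.5 UMIs. In day6-4, a cluster led by the somite genes Meox1 and Tcf15 that is not epithelial, the unthinned shares were 5.83% and 2.30%, at medians of 42983 and 48542 UMIs and levels of 1.96 CPM in cKO and 0.628 CPM in parental cells. The ratio lay between 2.61 and 3.34 under the other clusterings and cell filters tried, and was 2.89 in the 803 cKO and 256 parental cells that held UMIs of at least 5 of the 11 epithelial markers, a class made without clusters. In all other cells Tfap2a measured 3.96 CPM in cKO and 2.91 CPM in parental cells, a ratio of 0.44 (0.05 to 0.83).

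Tfap2b (ENSMUSG00000025927, chromosome 1, 19208914 to 19238576, plus strand), an AP-2 factor of neural crest, kidney and some neurons, was close to absent before day 6. It had 1 UMI in cKO and 9 UMIs in parental ESC, and 3 and 1 UMIs at day 3, in that genotype order. At day 6 it measured 1.44 CPM (1.17 to 1.75) in cKO and 19.5 CPM (18.5 to 20.6) in parental cells, a log2 ratio of −3.76 (−4.07 to −3.47). It was the only member lower in cKO at day 6. In parental cells, 44.2% of its UMIs lay in the neural-like cluster day6-6 (led by Hoxb9, Hoxb5os, Hoxc8, Hoxc9 and Hoxaas3), 26.4% in day6-3 and 21.2% in the neural-like day6-11 (led by Fabp7, Pantr1, Sfrp2, Sox3 and Pou3f3). Its levels there were 53.5 CPM (49.3 to 58.0), 62.0 CPM (55.7 to 68.8) and 23.3 CPM (20.6 to 26.1), over 144, 139 and 309 parental cells. These clusters held only 15, 7 and 6 cKO cells, so the level per cell of a neural type could not be compared between genotypes. In the epithelium-like clusters Tfap2b measured 0.842 CPM in cKO and 0.349 CPM in parental cells.

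Tfap2b transcripts were concentrated in few cells. In the cKO library 27 cells held its 98 UMIs, and the 10 highest cells held 82.7% of them. Of the 98 UMIs, 39 lay in the epithelium-like clusters, 31 of them in day6-0, while 28 lay in the 7 cells of day6-3 and 20 in day6-4. In day6-0 Tfap2b measured 1.30 CPM in cKO and 0.0961 CPM (1 UMI) in parental cells, opposite in direction to the whole libraries and under 2 CPM. In the parental library 190 cells held its 1350 UMIs, with up to 55 in a cell. At 10000 UMIs per cell, 0.549% of cKO cells (0.202 to 1.19) and 8.60% of parental cells (7.06 to 10.3) held a Tfap2b UMI, and in parental epithelium-like cells, as background, 0.5% did. The 101 parental cells with Tfap2b at that depth summed to 4983 CPM of neural markers, against 1535 CPM in the 1074 other cells, and to 135 CPM of epithelial markers, against 2011 CPM. Markers of neural crest summed to 26.7 CPM in these 101 cells and 38.8 CPM in the others. Tfap2a and Tfap2b were seen in the same parental cell 9 times, where the product of their shares gives 2.49 cells, while Tfap2b and Grhl2 were never seen together, where the product gives 3.35. Tfap2b lies on chromosome 1, and in cells without a chromosome shift its ratio was −4.47, while equal weight for each cell gave −2.67.

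Tfap2c (ENSMUSG00000028640, chromosome 2, 172549593 to 172558622, plus strand), the AP-2 factor shared by trophoblast, germ cells and early ectoderm, hardly differed over whole libraries at day 6 and differed within the epithelium. The library levels at day 6 were 10.6 CPM (9.80 to 11.4) in cKO and 10.4 CPM (9.63 to 11.2) in parental cells, a log2 ratio of 0.02 (−0.13 to 0.18). Within day6-0 it measured 14.6 CPM (13.1 to 16.2) in cKO and 29.2 CPM (26.0 to 32.7) in parental cells, and within day6-1 9.12 CPM (7.92 to 10.5) and 22.3 CPM (17.9 to 27.5). Over both clusters the ratio was −1.19 (−1.38 to −1.004), with 57 of 666 cKO cells (8.56%) and 38 of 200 parental cells holding a UMI at 10000 UMIs per cell. The share in all other cells at that depth, which include naive-like cells that hold Tfap2c, was 4.46% in cKO and 3.79% in parental cells. In day6-4 Tfap2c measured 1.80 CPM in cKO and 0.392 CPM in parental cells. So within the same clusters the level of Tfap2a was higher and that of Tfap2c lower in cKO. Without thinning, a Tfap2c UMI was seen in 40.5% of cKO and 40.5% of parental cells of day6-0. In day6-1 these shares were 22.3% and 32.9%. In day6-0 the lower level therefore did not go with a smaller share of cells with a UMI. The Tfap2c difference was −1.06 to −1.39 under 8 of the 9 other settings and −0.86 (−1.17 to −0.54), under 2-fold, in cells without a chromosome shift, of which the clusters held 637 in cKO and 67 in parental.

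Outside the epithelium, Tfap2c was highest in cells that kept pluripotency genes. In parental day 6 cells it measured 48.3 CPM (42.8 to 54.4) in the naive-like cluster day6-10, led by Dppa5a, Pou5f1, Tdh, Mylpf and Dppa3, which held 38.0% of its UMIs in 96 cells. The 12 cKO cells of that cluster held 105 of the 721 cKO Tfap2c UMIs. At day 3, 39.8% of parental Tfap2c UMIs lay in the 110 parental cells of the naive-like cluster day3-9, at 23.5 CPM (20.4 to 26.9), and only 5 cKO cells were in it. Over whole libraries at day 3 Tfap2c measured 9.74 CPM (9.08 to 10.4) in cKO and 6.77 CPM (6.21 to 7.38) in parental cells, and in ESC 6.75 CPM (5.96 to 7.62) in cKO and 11.5 CPM (10.7 to 12.2) in parental cells. The ratios, 0.52 (0.36 to 0.68) at day 3 and −0.76 (−0.97 to −0.56) in ESC, stayed under 2-fold.

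Grhl2 (ENSMUSG00000022286, chromosome 15, 37233036 to 37363569, plus strand), the grainyhead-like factor of epithelial junctions, had a genotype ratio that changed sign along the course, as that of Tfap2c did between ESC and day 3. In cKO it measured 1.59 CPM (1.22 to 2.04) in ESC, 11.1 CPM (10.4 to 11.8) at day 3 and 16.9 CPM (15.9 to 17.9) at day 6. In parental libraries it measured 3.36 CPM (2.97 to 3.797), 7.10 CPM (6.52 to 7.71) and 4.69 CPM (4.20 to 5.23). No pair of these 6 intervals overlapped, and the highest parental level was that of day 3. The log2 ratio of cKO over parental was −1.08 (−1.50 to −0.67) in ESC, 0.64 (0.49 to 0.80) at day 3 and 1.85 (1.67 to 2.03) at day 6. In cells without a chromosome shift the ratio was −0.25 at day 3, of the other sign, and 1.12 at day 6. With equal weight for each cell the ESC ratio was −0.37. An annotated antisense gene, Gm16136, overlaps Grhl2 and had 24.4 CPM in cKO and 4.37 CPM in parental cells at day 6, 3.34 and 1.29 CPM at day 3, and 0.128 and 0.270 CPM in ESC. Whether counting used the strand is not given in the sources used here, so reads of the pair may not be told apart.

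At day 6, 48.5% of cKO and 56.3% of parental Grhl2 UMIs lay in day6-0, and 43.2% of cKO and 23.7% of parental UMIs in day6-1. Its levels in day6-0 were 23.5 CPM (21.6 to 25.5) in cKO and 17.6 CPM (15.1 to 20.3) in parental cells, and in day6-1 they were 22.2 CPM (20.3 to 24.2) and 19.7 CPM (15.6 to 24.7). Over both clusters the ratio was 0.33 (0.13 to 0.53), against 1.85 over the whole libraries, and in cells without a chromosome shift it was −0.0030 (−0.29 to 0.29). A UMI was seen in 21.6% of cKO and 17.0% of parental cells of these clusters at 10000 UMIs per cell, with 3.76% and 0.513% in all other cells. In all other cells the level was 4.37 CPM in cKO and 1.18 CPM in parental cells, a ratio of 1.89 (1.42 to 2.36). Of the 96 cKO UMIs there, 40 were in day6-5, a cluster led by AY036118, Lars2, Mt2, Mt1 and S100a1 whose cells held few UMIs, where Grhl2 measured 12.4 CPM in cKO and 13.2 CPM in parental cells. Day6-5 held 461 of the 964 other cKO cells and 122 of the 1342 other parental cells. The ratio in all other cells thus mixes kinds of cell present in unlike numbers. Another 30 of the 96 UMIs were in day6-4. That cluster was led by Meox1, Tcf15, Fst, Twist1 and Igfbp5, and Grhl2 measured 2.45 CPM in cKO and 0.392 CPM in parental cells.

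At day 3 Grhl2 was spread widely before any cluster was clearly epithelial. A UMI was seen in 48.0% of cKO cells (44.9 to 51.1) and 31.01% of parental cells (28.1 to 34.1), and in 10.1% and 5.90% at 10000 UMIs per cell. Its level was 16.7 CPM in cKO and 20.1 CPM in parental cells of day3-5, led by Tagln, Ltb, Stmn4, Gadd45b and Sfn, and 15.1 CPM in both genotypes in day3-0, led by Rhox5, Dnmt3l, Calcoco2, Lncenc1 and Folr1. In the 268 parental cells of day3-11, which held 1 cKO cell and had Ccnd2, Cdx2, Hoxb1 and Hoxb2 among its leading genes, it measured 4.04 CPM. Day3-3 had 4 of the 11 epithelial markers, but it was led by Prph, Lgals3, Ddit3, Fabp3 and Ahnak2, and Grhl2 measured 7.08 CPM in cKO and 5.32 CPM in parental cells there. In ESC, 56.1% of parental Grhl2 UMIs lay in ESC-4 (15 cKO and 268 parental cells, with Tdrd12, Lef1, Fkbp11 and Rangrf among its leading genes), at 6.61 CPM (5.58 to 7.76).

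Grhl3 (ENSMUSG00000037188, chromosome 4, 135541888 to 135573630, minus strand), which acts in late epidermal differentiation and neural tube closure, was lowest at day 3 in both genotypes, as Tfap2a was. In cKO it measured 3.36 CPM (2.81 to 3.99) in ESC, 0.499 CPM (0.3598 to 0.675) at day 3 and 2.42 CPM (2.06 to 2.81) at day 6. In parental libraries it measured 1.72 CPM (1.44 to 2.04), 0.514 CPM (0.367 to 0.700) and 0.751 CPM (0.561 to 0.984), where the last pair of intervals overlap. The log2 ratio was 1.69 (1.23 to 2.17) at day 6 and 0.97 (0.61 to 1.33) in ESC. Within the epithelium-like clusters of day 6 it measured 2.85 CPM in cKO and 2.03 CPM in parental cells, a ratio of 0.49 (−0.10 to 1.13) that includes 0. When each cell had equal weight, the day 6 ratio over whole libraries was 0.39, under 2-fold. Grhl1 (ENSMUSG00000020656, chromosome 12, 24572283 to 24617391, plus strand), which regulates desmosomal cadherins of skin, stayed under 2 CPM in all 6 libraries. It measured 0.693 CPM in cKO and 0.603 CPM in parental ESC, 1.26 and 1.30 CPM at day 3, and 0.366 and 0.346 CPM at day 6, and the genotypes' intervals overlap at every stage.

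Trp63 (ENSMUSG00000022510, chromosome 16, 25683763 to 25892102, plus strand), the gene of p63, appeared at day 6 and at low level. It had 5 UMIs in each of the ESC libraries, and at day 3 it had 5 UMIs in cKO and 1 UMI in parental cells. At day 6 it had 84 UMIs in 43 cKO cells and 7 UMIs in 6 parental cells, or 1.23 CPM (0.981 to 1.52) and 0.101 CPM (0.0406 to 0.208). The log2 ratio was 3.61 (2.4997 to 4.96), but the higher library stayed under 2 CPM, so it is not counted as higher. It was 2.27 in cells without a chromosome shift and 2.60 with a filter of 2000 genes and 5% mitochondrial UMIs. In cKO, 50 of the UMIs lay in day6-1 and 27 in day6-0, and in parental cells all 7 lay in the same clusters. Within both clusters it measured 1.66 CPM (1.31 to 2.08) in cKO and 0.489 CPM (0.197 to 1.01) in parental cells. Only within day6-1 alone did it pass, at 2.22 CPM in cKO and 0.769 CPM (3 UMIs) in parental cells. The keratins of the basal epidermis that p63 is known to maintain, Krt5 and Krt14, measured 0.0439 and 0.117 CPM in cKO and 0.0289 and 0.202 CPM in parental cells.

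Gata3 (ENSMUSG00000015619, chromosome 2, 9857078 to 9890034, minus strand), a factor of surface ectoderm, trophoblast and T cells, had a time course like that of Tfap2a. In cKO it measured 7.83 CPM (6.98 to 8.76) in ESC, 0.618 CPM (0.462 to 0.811) at day 3 and 5.199 CPM (4.67 to 5.77) at day 6. In parental libraries it measured 5.07 CPM (4.58 to 5.60), 0.399 CPM (0.271 to 0.566) and 1.96 CPM (1.65 to 2.32). The day 3 intervals of the genotypes overlap, as do those of cKO at day 6 and parental ESC, and the others do not. The log2 ratio was 1.40 (1.12 to 1.70) at day 6 and 0.63 (0.41 to 0.85) in ESC. The ESC ratio was −0.17, of the other sign, in cells without a chromosome shift, and 1.56 with a stricter filter of barcodes (2000 genes, 5% mitochondrial UMIs). Within the epithelium-like clusters of day 6 it measured 6.82 CPM (6.09 to 7.62) in cKO and 5.10 CPM (4.00 to 6.41) in parental cells, a ratio of 0.42 (0.05 to 0.81). In cells without a chromosome shift the ratio was 0.69 over whole libraries and −0.10 within the clusters, so Gata3 did not pass 2-fold there.

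**Figure D3:**
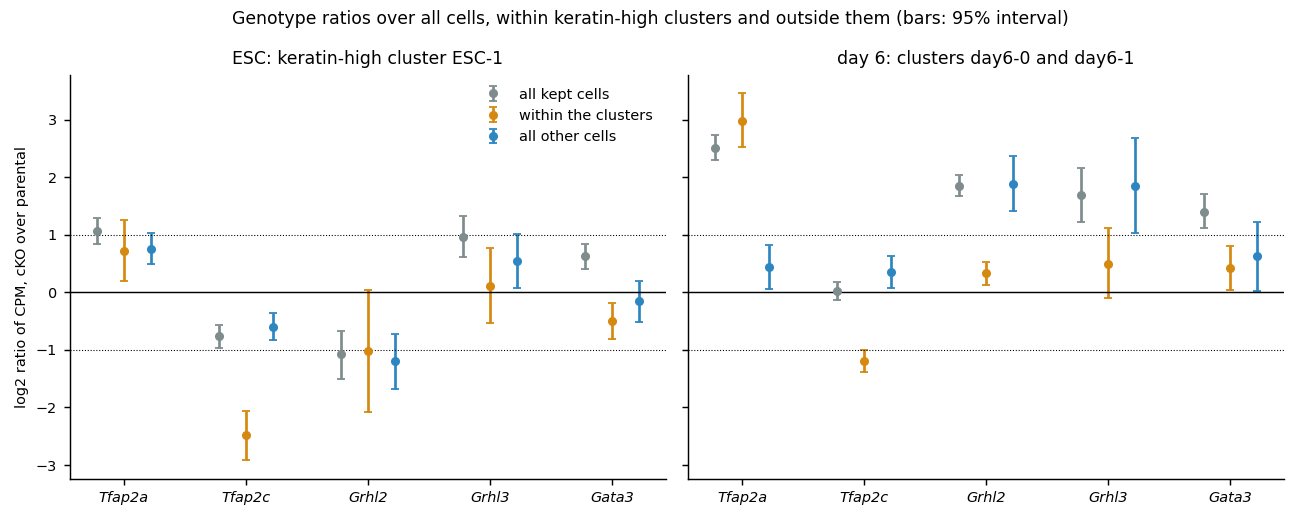
Log2 ratio of CPM, cKO over parental, for 5 members over all kept cells, within the keratin-high clusters and in all other cells, in ESC (left) and at day 6 (right). Bars are exact 95% intervals of counting error and dotted lines mark 2-fold. At day 6 Tfap2a is at 2.98 and Tfap2c at −1.19 within the clusters, while Grhl2, Grhl3 and Gata3 lie between 0.33 and 0.49.

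The 4 members higher in cKO at day 6 thus had unlike patterns. Of their summed UMIs, the epithelium-like clusters held 2552 of 2807 in cKO (90.9%; 89.8 to 92.0) and 403 of 714 in parental cells (56.4%; 52.7 to 60.1). The same cells gave 67.8% of the UMIs of all genes in cKO and 20.7% in parental cells, so these shares partly follow the make-up of the libraries. For Grhl2, Grhl3 and Gata3 the ratio within these cells was under 2-fold, and for Tfap2a it was as large within them as over the library. At 10000 UMIs per cell, 343 of 1092 cKO cells (31.4%; 28.7 to 34.3) and 238 of 1175 parental cells (20.3%; 18.0 to 22.7) held a UMI of at least 1 member. At least 2 members were seen in 7.42% of cKO cells (5.93 to 9.14) and 3.15% of parental cells (2.23 to 4.31), against 24.5% and 12.5% without thinning. Tfap2a and Grhl2 were seen together in 27 cKO cells, where the product of their shares gives 18.3, and in 1 parental cell, where it gives 0.963. These shares grow with depth, and cells with fewer UMIs, 558 in cKO and 371 in parental, were left out of them.

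In ESC the members were also uneven across cells. The keratin-high cluster ESC-1, led by Krt18, Krt8, H19, Krt7 and Fabp3, held 115 cKO cells (21.7%; 18.3 to 25.5) and 68 parental cells (4.87%; 3.802 to 6.13). It held 69.2% of the cKO Gata3 UMIs and 37.0% of the parental ones, at 26.8 CPM (23.3 to 30.7) in cKO and 37.8 CPM (31.9 to 44.4) in parental cells. Tfap2a measured 17.4 CPM (14.6 to 20.6) in cKO and 10.6 CPM (7.61 to 14.4) in parental cells of ESC-1, and Grhl3 8.65 and 8.02 CPM. Tfap2c measured 8.14 CPM (6.27 to 10.4) in cKO and 45.5 CPM (39.0 to 52.8) in parental cells of ESC-1, a log2 ratio of −2.48. Within this cluster no member was higher and 2 were lower in cKO, Tfap2c and Grhl2 (2.16 CPM in cKO and 4.40 CPM in parental cells, with 17 UMIs each), against 5.42% higher and 3.87% lower of 11505 genes.

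The summed markers of trophoblast were lower in cKO cells of ESC-1, as Tfap2c was and Tfap2a was not. The 8 markers summed to 83.5 CPM in cKO and 220 CPM in parental cells, and Elf5 and Tpbpa were at 0 in both. Most of the sum was Ascl2, a factor of the placenta, at 57.1 CPM in cKO and 174 CPM in parental cells. Cdx2, Gcm1 and Plac1 were also lower in cKO, while Eomes (5.34 and 2.33 CPM) and Hand1 (3.31 and 1.81 CPM) were higher. Outside ESC-1 the trophoblast sums were 36.5 and 27.0 CPM. The 11 markers of epithelium also summed lower in cKO cells of ESC-1, at 3480 CPM against 5890 CPM. The part of either set in the member levels was not tested. Leaving ESC-1 out, the ESC ratio of Gata3 was −0.15 (−0.51 to 0.19) and that of Tfap2a 0.76 (0.49 to 1.02), under 2-fold. Fibroblast-like cells of ESC-8, led by Mgp, Thbs1, Timp2, Acta2 and S100a4, held 26.1% of parental Gata3 UMIs at 17.7 CPM and also held Tfap2a at 8.27 CPM. Leaving them out, the Gata3 ratio was 0.95 (0.71 to 1.19). The ESC counts rest on 1 member in each direction. With equal weight per cell neither passed, with Tfap2a at 0.90 and Grhl2 at −0.37, and in cells without a chromosome shift (495 cKO and 407 parental) Tfap2a was at 0.49.

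Between stages, Tfap2a and Gata3 were low at day 3 in both genotypes, and Grhl2 was not. In cKO, 3 members were lower at day 3 than in ESC (Tfap2a at −3.58, Grhl3 at −2.75 and Gata3 at −3.66 on the log2 scale) and Grhl2 was higher at 2.80 (2.43 to 3.20), against 14.8% lower and 10.5% higher of 11319 genes. In parental cells Tfap2a (−2.58) and Gata3 (−3.67) were lower and Grhl2 was higher at 1.08 (0.86 to 1.29), against 12.7% lower and 8.99% higher of 11478 genes. From day 3 to day 6, 3 members were higher in cKO (Tfap2a at 4.52, Grhl3 at 2.27 and Gata3 at 3.07) and none was lower, against 24.7% higher and 8.94% lower of 11593 genes. In parental cells Tfap2a at 2.06 (1.62 to 2.52) and Tfap2b were higher and none was lower, against 20.7% higher and 6.51% lower of 11835 genes. The Tfap2b ratio was 10.57 with an interval of 8.09 to 15.87, since the day 3 library held 1 UMI. Set directly against ESC, day 6 had Grhl2 higher in cKO at 3.41 (3.04 to 3.801), against 24.8% higher and 12.7% lower of 11862 genes. In parental cells it had Tfap2b higher at 7.40 (6.47 to 8.53) and Gata3 lower at −1.37 (−1.66 to −1.08), against 23.5% higher and 11.4% lower of 12163 genes. The median of all genes from day 3 to day 6 was 0.27 in cKO and 0.25 in parental cells, and TMM scaling shifted it by −0.28 and −0.24, so each of these ratios is to be read relative to that offset.

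Genes known to be activated by grainyhead-like factors, or to belong to the same epithelial program, are listed in a set of 20 chosen with earlier results of these data in view. At day 6, 18 of them reached 2 CPM, 17 were higher in cKO and none was lower, with a median log2 ratio of 1.63. Over all 11744 genes of day 6, 6.22% were higher and 8.57% were lower. Cldn3, a tight junction protein, measured 213 CPM in cKO and 55.9 CPM in parental cells, Spint1, an inhibitor of membrane proteases, 100.5 and 27.1 CPM, and Marveld3, another junction protein, 11.2 and 2.97 CPM. Elf3, an epithelial ETS factor, was the 1 of the 18 that did not pass, at 18.9 and 11.3 CPM. Within the epithelium-like clusters none of the 18 passed in either direction, against 2.05% higher and 3.16% lower of 11290 genes, and the median was 0.15. Cdh1, Epcam, Cldn6, Cldn7 and Esrp1 of this list were also markers that named these clusters, so for them a small difference there is partly set by that choice. There Cldn3 measured 288 CPM in cKO and 233 CPM in parental cells, Spint1 135 and 101 CPM, and Marveld3 14.9 and 10.7 CPM. In ESC 3 of 14 listed genes were higher, with Cldn4 among them, and Cldn6 was lower, against 1.81% higher and 4.21% lower of 11168 genes. Within ESC-1 none of 16 was higher and 5 were lower, with a median of −0.56, against 5.42% higher and 3.87% lower of 11505 genes. At day 3 1 of 17 was higher, against 0.427% of 10779 genes. It was Rab25, a GTPase of epithelial trafficking, at 12.6 CPM in cKO and 6.16 CPM in parental cells.

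**Figure D4:**
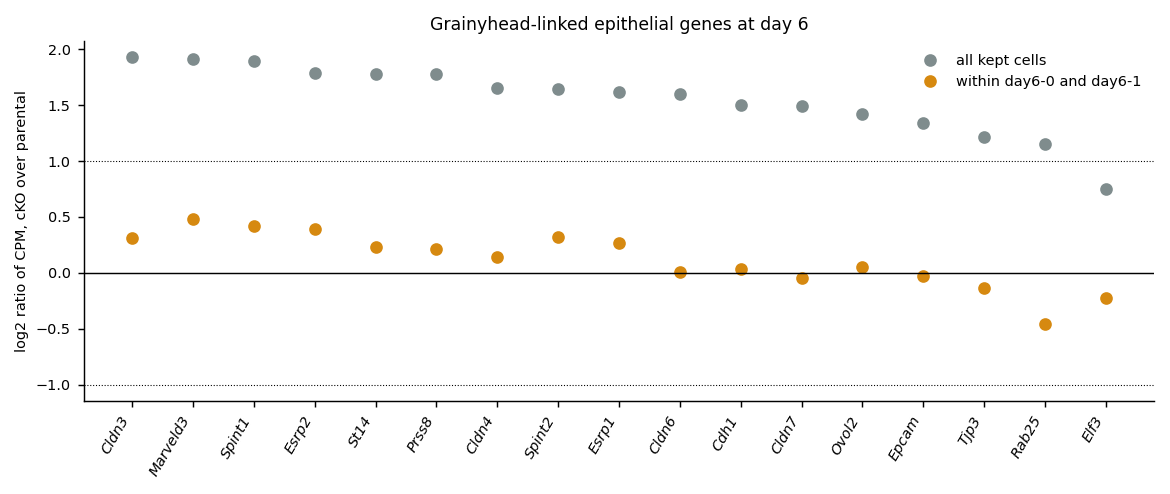
Log2 ratio of CPM at day 6, cKO over parental, for 17 of the 18 grainyhead-linked epithelial genes with at least 2 CPM, over all kept cells (grey) and within clusters day6-0 and day6-1 (orange); dotted lines mark 2-fold. Over all cells 16 of the genes shown lie above 2-fold, and within the clusters none does. Some of the genes shown were also markers that named the clusters.

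Other genes around the members were read in the same way. The shares of all genes at day 6 were 6.22% higher and 8.57% lower over all cells. Within the epithelium-like clusters they were 2.05% higher and 3.16% lower. Of the keratins of simple epithelia, 3 of 4 were higher at day 6 over all cells, with Krt7 at 245 CPM in cKO and 67.8 CPM in parental cells. None of the 4 passed within the epithelium-like clusters, where Krt8 measured 2476 CPM in cKO and 3160 CPM in parental cells. Krt7, Krt8 and Krt18 were also markers that named those clusters. Of the genes of basal and stratified epidermis, 9 of 12 were higher over all cells. They included Perp, a desmosomal target of p63 (282 and 51.2 CPM), and Tgm1, the enzyme that crosslinks the cornified envelope (66.7 and 13.2 CPM). Within the clusters 1 of the 12 was higher, Krt15, a keratin of basal cells, at 2.16 CPM in cKO and 0.210 CPM in parental cells. Of non-neural ectoderm and BMP-linked factors, 3 of 9 were higher over all cells and none lower. Dlx3 measured 8.39 CPM in cKO and 2.89 CPM in parental cells, Dlx5 3.02 and 0.534 CPM, and Klf5 114 and 28.1 CPM, the first pair being homeobox factors of ectoderm. Within the clusters 1 of 10 of that set was higher, Klf4 at 6.74 and 2.94 CPM, and 1 was lower, the Gata3 relative Gata2 at 1.32 and 2.73 CPM, a gene named after its values were seen.

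The nearest relatives of the members showed no difference of 2-fold over whole libraries. The AP-2 genes Tfap2d and Tfap2e stayed under 2 CPM in every library. Of the grainyhead relatives Tfcp2, Tfcp2l1 and Ubp1, all 3 were measured at each stage and none passed in either direction. Of the p53 relatives and the other GATA genes, at most 2 and 1 reached 2 CPM at a stage, and none passed. Within ESC-1, 2 GATA relatives reached 2 CPM and 2 were lower in cKO, against 3.87% lower of 11505 genes. They were Gata2, at 9.92 CPM in cKO and 85.6 CPM in parental cells, and Gata6, at 2.03 and 4.14 CPM, named after their values were seen. No grainyhead or p53 relative passed in ESC-1.

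The genes with the most similar pattern to each member were taken over 50 units of cluster, genotype and stage with at least 20 cells, out of 9108 genes, by the Pearson correlation of log2(CPM + 1). The units share libraries and depth, so the values are descriptions. Tfap2b was most like Pax7 and Pantr1, both with r = 0.91, and Ednrb (0.87). Grhl2 was most like Grb7 (0.87), Bspry (0.85) and Fgfbp1 (0.80), Grhl3 like Pip4k2c (0.84), C77080 (0.83) and Kazn (0.82), and Gata3 like Mpp1 (0.80), Emp2 (0.80) and Myof (0.79). Tfap2c was most like Trim13 (0.77), Elf3 (0.74) and Map7 (0.74), and Tfap2a like Rab11fip5 (0.72), Tnrc18 (0.71) and Slc6a8 (0.71). Among the members themselves, the highest correlations were those of Grhl3 with Gata3 (0.73), Tfap2c with Grhl2 (0.62) and Tfap2a with Gata3 (0.62). Tfap2a and Grhl2, both higher in cKO at day 6, had a correlation of −0.02 over the units, and Tfap2b and Tfap2c one of −0.50.

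Because Oct1 binds the octamer ATGCAAAT and AP-2 factors bind GCCNNNGGC, the promoter windows of members were searched for these on both strands. Windows of 250 bases before a RefSeq transcript start were found for 5 of the 8 members in the RefSeq table (GRCm38.p6), with 7 windows in all. None held the octamer, which 1.60% of 32851 promoters hold, nor the grainyhead site AACCGGTT (0.116% of promoters) or its core AACCGG (5.62%), which lies inside it. None held the GATA site AGATAA (9.99%) or the TATA box TATAAA (12.4%). An AP-2 match, present in 13.7% of all promoters, was found in windows of Gata3 and Grhl1, and an E-box CACCTG, present in 17.2%, in that of Grhl3. A match is only a match of letters, and no match says nothing of the factor. The windows of Gata3, Grhl3 and Tfap2a are shown because these 3 members were higher together in cKO at day 6, with capitals at AP-2 matches. All 3 are read on the minus strand, and the start of a RefSeq transcript follows the last base. For Gata3 and Tfap2a that start lies inside the GENCODE gene.
Gata3, chr2:9878601-9878850: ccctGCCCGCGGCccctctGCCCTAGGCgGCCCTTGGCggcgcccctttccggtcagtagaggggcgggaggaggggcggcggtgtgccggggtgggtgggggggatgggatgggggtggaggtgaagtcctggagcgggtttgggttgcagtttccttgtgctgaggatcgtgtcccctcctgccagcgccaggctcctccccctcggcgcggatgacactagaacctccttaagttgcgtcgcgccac
Grhl3, chr4:135573633-135573882: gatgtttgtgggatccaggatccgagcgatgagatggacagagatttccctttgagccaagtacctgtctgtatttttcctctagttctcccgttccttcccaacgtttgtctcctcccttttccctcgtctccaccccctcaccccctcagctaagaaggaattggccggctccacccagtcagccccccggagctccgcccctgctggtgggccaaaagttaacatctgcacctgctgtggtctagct
Tfap2a, chr13:40734921-40735170: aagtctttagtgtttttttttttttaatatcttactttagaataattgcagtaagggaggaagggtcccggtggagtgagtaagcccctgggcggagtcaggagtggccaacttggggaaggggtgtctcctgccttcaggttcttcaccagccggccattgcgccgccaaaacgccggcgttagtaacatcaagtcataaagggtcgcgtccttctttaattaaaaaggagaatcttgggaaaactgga
In Gata3 the 3 matches begin 246, 231 and 221 bases before that start, and the windows of Grhl3 and Tfap2a hold none.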

How the data were processed

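Single cells of 6 libraries were captured with a 10x 5′ kit after trypsin harvest, per the labels' protocols. The deposited values are UMI counts for each gene and barcode, which the authors made with Cell Ranger 3.1.0, per the file headers, on mm10, per the submitters' processing notes. Whether strand was used in counting is not given in the sources used here. The 8 members and the 14 gene lists were chosen with earlier results of these data known.

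Counts of kept cells were summed per library and divided by the library total (CPM). With 1 library in a group, exact Poisson intervals of levels, exact conditional binomial intervals of ratios and Clopper-Pearson intervals of shares, all 95%, cover counting error only, and no p-value is given. UMI totals per library set this precision. A floor of 3 counts was used where a library held 0. Shares were taken after thinning each cell to 10000 UMIs, leaving out shallower cells. Cells of a stage were clustered without the members (2000 variable genes, 30 components, 15 neighbours, Leiden resolution 0.8), and a cluster with under 20 cells of a library gave no level. Each list's named genes are up to 3 per stage with the largest ratios past 2-fold and 2 CPM. Lists were also read within clusters. A few genes counted in lists or leading clusters are not reported here by name. Doublets were kept: Scrublet marked 30 barcodes in all, from 0.061% of kept cells in cKO at day 6 to 1.17% in cKO at day 3. How well it found doublets was not tested, so some may remain unmarked. Leaving the marked barcodes out was among the alternatives. Coding sequences took the place of proteins in the comparison of members. GENCODE M21 positions matched 30934 of 31053 genes, and promoter windows came from RefSeq. The scripts were tested on simulated data. Alternatives were barcode filters, TMM (edgeR 4.0.16) and median-of-ratios scaling, equal weight per cell, other thresholds, depths and clusterings. Python 3.11.15, numpy 2.4.6, pandas 2.3.3, scipy 1.17.1, scanpy 1.11.5, igraph 0.11.9 and biopython 1.88 were used.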

Additional observations from a re-analysis of the deposited data

Results flagged for a closer look

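Grhl2 was lower in cKO in ESC and higher later. Its log2 ratio of cKO over parental was −1.08 in ESC, 0.64 at day 3 and 1.85 at day 6, so the sign in ESC was opposite to that at both later stages. Tfap2c had a ratio of −0.76 in ESC and 0.52 at day 3, again of opposite sign. With 1 library for each genotype and stage, the difference between stages was not tested. In cells without a chromosome shift the Grhl2 ratio at day 3 was −0.25, and for Grhl2 the opposite sign then held between ESC and day 6 alone.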

How the results depend on the processing

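No paired analysis was possible because the groups share only replicate number 1, with 1 library in each. Of 232 recomputed summary values 170 stayed within their bounds and 62 moved, and of 558 values of single members 462 stayed and 96 moved. A count of members stayed when within 1.5-fold of the reported one, so smaller changes are not listed below. At day 6 Grhl3 no longer passed with equal weight per cell (0.39) or with a minimum of 5 CPM. In cells without a chromosome shift Gata3 no longer passed (0.69). No called direction reversed. The alternatives within clusters, and those without the ESC fibroblast-like or keratin-high cluster, were chosen after seeing the data. Causes were not tested, except that a higher minimum or fold leaves fewer members by construction. Counts are members higher or lower, with the reported count in brackets. The share of all genes that passed was not taken at these settings, so the counts have no background beside them.

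With the strict barcode filter (2000 genes, 5% mitochondrial), cKO against parental ESC had 3 higher (1) and 0 lower (1). Day 6 against ESC had 2 lower (0) in cKO and 0 lower (1) in parental cells, and day 3 against ESC had 0 higher (1) in parental cells. In cells without a chromosome shift, ESC had 0 higher (1). Day 6 against ESC had 2 higher (1) in cKO, and 2 higher (1) and 3 lower (1) in parental cells. Day 3 against ESC had 4 lower (2) in parental cells. Median-of-ratios scaling gave 2 higher (1) in ESC. Equal weight per cell gave 0 higher (1) and 0 lower (1) in ESC, and 2 higher (1) at day 6 against ESC in cKO.

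With no minimum CPM, ESC had 2 higher (1) and 2 lower (1), and day 3 had 2 higher (0). Stage ratios in cKO had 5 higher (3) and 1 lower (0) from day 3 to day 6, and 3 higher (1) from ESC to day 6. In parental cells they had 2 higher (1) and 5 lower (2) from ESC to day 3, 4 higher (2) and 1 lower (0) from day 3 to day 6, and 2 lower (1) from ESC to day 6. With a minimum of 5 CPM, ESC had 0 lower (1), and parental cells had 1 lower (2) from ESC to day 3 and 1 higher (2) from day 3 to day 6. With a minimum of 20 CPM no member was called in any comparison, so 0 replaced 1 and 1 in ESC and 4 and 1 at day 6. At 1.5-fold, ESC had 3 higher (1) and 2 lower (1), day 3 had 1 higher (0), day 6 against ESC in cKO had 3 higher (1) and 1 lower (0), and parental cells had 1 lower (0) from day 3 to day 6.

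At clustering resolution 1.2 the epithelium-like clusters held 88.5% of the Tfap2a, Grhl2, Grhl3 and Gata3 UMIs in cKO and 46.1% in parental cells. Those clusters held 37.0% of the cKO cells and 8.09% of the parental cells. Cells with at least 2 members depended on depth. At 3000 UMIs they were 0.388% of cKO and 0.221% of parental cells in ESC, 0.391% and 0.217% at day 3, and 0.736% and 0.483% at day 6. At 20000 UMIs they were 6.97% and 5.42% in ESC, 6.33% and 3.93% at day 3, and 17.7% and 7.50% at day 6. At 10000 UMIs the strict filter gave 1.22% in cKO ESC.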

Other observations

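Lists for other tissues in which the members act were read at day 6 as values. For these lists and those of the next paragraph, the shares of all genes were 6.22% higher and 8.57% lower over all cells. Within the epithelium-like clusters they were 2.05% higher and 3.16% lower. Of trophoblast genes, 4 of 8 were higher in cKO over all cells and none lower, with the placental homeobox gene Esx1 at 14.6 CPM in cKO and 2.73 CPM in parental cells. Another of the 4 was Krt7, which was also a marker that named the epithelium-like clusters. Within the epithelium-like clusters 1 of 9 was higher (Esx1) and 2 were lower (Plac1 and Cdx2, named after their values were seen). Of genes of amnion and extraembryonic mesoderm, 3 of 7 were higher over all cells, with the ligand Wnt6 at 511 and 62.3 CPM, and 1 was lower. Wnt6 was also a marker that named the epithelium-like clusters, and within them 1 of 6 was higher and 2 were lower. Of primordial germ cell genes, 1 of 6 was higher (Sox17, 8.93 and 2.58 CPM) and 2 were lower, Kit and the germ cell gene Dppa3, the second at 4.10 CPM in cKO and 12.8 CPM in parental cells. Sox17 was also a leading gene of the epithelium-like day6-1. Within the epithelium-like clusters none of 6 germ cell genes was higher and 2 were lower.

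Of neural crest genes, where AP-2 factors act early, 1 of 8 was higher in cKO at day 6 (Erbb3, a receptor, at 22.8 and 6.16 CPM) and 2 were lower, Pax3 at 20.7 and 51.0 CPM and Zic1 at 4.63 and 15.6 CPM. Sox10 and Foxd3, which define the crest, stayed under 2 CPM. Of placode and otic genes, 1 of 7 was higher (Dlx5) and 3 were lower, among them Sox3 at 1.77 CPM in cKO and 41.5 CPM in parental cells. Of nephric duct genes, 1 of 3 was higher (Wfdc2, 396 and 122 CPM) and 2 were lower, Pax2 at 0.0732 and 4.55 CPM and Lhx1 at 1.63 and 9.05 CPM. Wfdc2 was also a leading gene of the epithelium-like day6-0. Within the epithelium-like clusters none of 2 nephric duct genes was higher and 1 was lower. At day 3, 2 of 4 trophoblast genes were lower in cKO, Cdx2 at 8.84 and 26.6 CPM and Eomes at 4.62 and 9.50 CPM. Both were also in the list of primitive streak markers, so they do not single out trophoblast. Cdx2 was a leading gene of day3-11, which held 1 cKO and 268 parental cells. Of all 10779 genes at day 3, 1.03% were lower.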
